A study of Mus musculus with 4 samples.

Results

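Erythropoietin (Epo) and the genes of the HIF oxygen sensor were examined in mouse kidney. The 10 members are Epo, the HIF subunits Hif1a, Epas1, Hif3a and Arnt, the hydroxylases Egln1, Egln2, Egln3 and Hif1an, and Vhlh, now named Vhl. They were chosen by gene name among the probes that are not controls, and all 10 stood among the 17628 genes tested. They are read by 19 of 41174 probes, of which 17 passed the filter on dim signals. A probe named Hlf, an old synonym of Epas1 that is also the symbol of another gene, was left out.

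The study compared kidney RNA of Th3 mice with control kidney RNA. Th3 is a model of beta-thalassemia, an inherited anaemia, in which both adult beta-globin genes, beta-major and beta-minor, are deleted. The labels call the other mice controls, and they give no age, sex, zygosity or background strain for either group. The design counts 4 mutants and 4 controls, hybridised as 1 Th3 and 1 control sample on each of 4 two-colour arrays, with Th3 in Cy5 on arrays 1 and 2 and in Cy3 on arrays 3 and 4. No label says whether the samples come from different mice. The main fit holds a term for dye orientation. Its p-values and intervals therefore rest on the spread within arrays 1 and 2 and within arrays 3 and 4. That spread may be technical. A difference between these pairs of arrays goes into the dye term and does not widen the error. With each pair as a random block in place of that term, 1199 genes were called, against 3793. The kidneys on a pair of arrays and the dye orientation of that pair cannot be told apart. Precision is limited by there being 4 arrays.

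Erythropoietin is the hormone that drives red-cell formation. In the adult it is made mainly by interstitial cells of the kidney when oxygen delivery falls, and to a lesser extent by liver. Its gene is switched on by HIF, a pair of an oxygen-regulated alpha subunit and the stable partner Arnt. With oxygen present, prolyl hydroxylases (the Egln enzymes) mark the alpha subunits for the VHL ubiquitin ligase, which has them degraded. This control acts on the HIF proteins, which the arrays do not measure, and several sensor genes are HIF targets themselves, Egln3 among them.

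Epo is the member on which the results turn, and its 2 probes gave different folds, so both are shown. Each is 60 bases long and both match the minus strand of chromosome 5 on build mm8, with starts 539 bases apart. The array annotation gives their gene but not the exon. In the lines below no base is marked by capitals.
A_52_P444815, chr5:137714833-137714892: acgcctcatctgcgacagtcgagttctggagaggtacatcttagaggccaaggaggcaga
A_51_P143659, chr5:137714294-137714353: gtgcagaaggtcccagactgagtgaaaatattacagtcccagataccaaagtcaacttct
The first has 33 G or C bases and the second 26. A_52_P444815 was the brighter over both channels and stands for the gene in the fit across all genes.

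Epo and Egln3 were the members that rose most, so the 250 bases before their starts are shown as well (RefSeq, build GRCm38.p6, both on the minus strand). Capitals mark ACGTG and GCGTG on either strand (CACGT and CACGC where they lie on the other strand), the core of the element that HIF binds.
Epo, chr5:137485817-137486066: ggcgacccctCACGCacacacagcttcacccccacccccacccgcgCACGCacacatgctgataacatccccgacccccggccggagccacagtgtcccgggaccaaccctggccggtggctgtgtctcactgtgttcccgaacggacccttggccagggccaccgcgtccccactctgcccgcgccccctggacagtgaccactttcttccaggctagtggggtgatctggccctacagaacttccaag
Egln3, chr12:54203875-54204124: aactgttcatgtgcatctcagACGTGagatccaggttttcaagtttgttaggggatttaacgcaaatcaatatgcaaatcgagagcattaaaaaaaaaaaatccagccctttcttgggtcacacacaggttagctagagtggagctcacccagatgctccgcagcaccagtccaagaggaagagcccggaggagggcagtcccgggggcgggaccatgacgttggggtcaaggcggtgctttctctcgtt
The Epo window held GCGTG at 2 places and the Egln3 window ACGTG at 1 place. Of 32851 promoter windows in the table, 16.6% held ACGTG, 28.2% held GCGTG and 38.6% held either. Promoters were listed for 9 of the 10 members, in 10 windows, and 8 of these held either core. A match describes the letters only, and the hypoxia enhancers known for Epo lie outside this window.

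Epo, Egln3, Epas1 and Hif1a passed the test as higher in Th3 kidney, and no member passed as lower. The threshold was a Benjamini-Hochberg adjusted p under 0.05 over all 17628 genes in the limma fit. Of all genes tested, 10.9% were called higher and 10.6% lower, 21.5% in either direction, so calls were common on these arrays. Of all genes called, 50.8% were higher with loess normalization and 62.9% with median centring instead. The median log2 ratio was 0.01 over the 10 members and 0.0013 over all genes. A dye effect was called for 0.993% of all genes and for 0 of the 10 members.

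**Figure D1:**
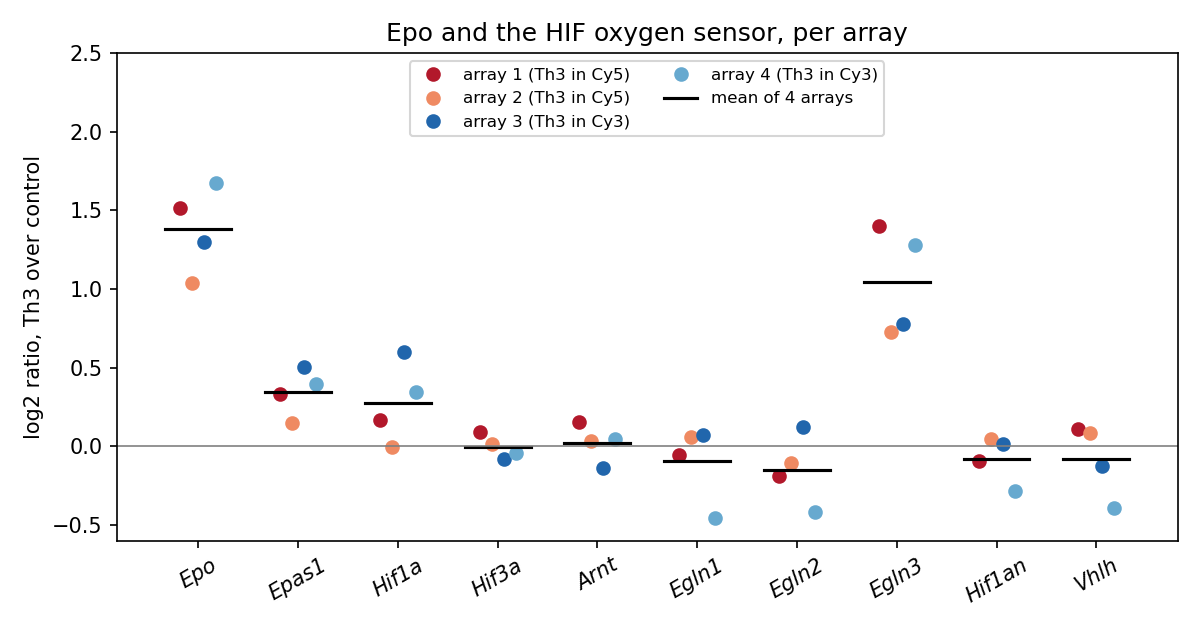
Log2 ratio of Th3 over control (vertical axis) for each member, as 1 point per array coloured by array, with a bar at the mean of the 4 arrays. Epo lies between 1.04 and 1.67 and Egln3 between 0.73 and 1.40, while Hif3a, Arnt, Egln1, Egln2, Hif1an and Vhlh have points on both sides of 0.

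Epo rose most among the members. On A_52_P444815 the processed signal, which the scanner software had corrected for background and dye, was 352, 410, 551 and 819 in Th3 kidneys on arrays 1 to 4. In control kidneys it was 67.4, 76.6, 168 and 184 on the same arrays. The groups did not overlap, and the lowest Th3 signal was 1.91 times the highest control signal. Both groups were brighter on arrays 3 and 4 than on arrays 1 and 2.

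The normalized log2 ratio of Epo on this probe was 1.51, 1.04, 1.30 and 1.67 on arrays 1 to 4, a mean of 1.38 ± 0.27 (SD, n = 4). That is 2.60-fold, with a 95% interval of 1.14 to 1.61 on the log2 scale and an adjusted p of 0.000993 in the limma fit. By log2 ratio Epo ranked 21 of the 17628 genes. The mean was 1.27 on the arrays with Th3 in Cy5 and 1.49 on those with Th3 in Cy3.

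The other Epo probe, A_51_P143659, had processed signals of 487, 599, 797 and 1136 in Th3 kidneys on arrays 1 to 4. Its control signals were 39.2, 55.3, 84.9 and 101, again without overlap. This probe was the brighter of the pair in Th3 kidneys and the dimmer in control kidneys. Its normalized log2 ratio was 2.04, 1.33, 2.19 and 2.49, a mean of 2.01 ± 0.49 (SD, n = 4), which is 4.03-fold. The limma fit over all kept probes gave it an adjusted p of 0.000773. It exceeded A_52_P444815 by 0.63 ± 0.28 on the log2 scale (SD, n = 4 arrays), and on each of the 4 arrays.

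Epo was called under all 21 alternatives, but the size of its fold varied between them. On A_52_P444815 the fold lay between 2.40, without array 1, and 4.50, with Agilent's processed signals. On A_51_P143659 it lay between 3.57 and 10.9 over 20 alternatives. The authors' deposited table gives a fold of 3.702 with an adjusted p of 0.00015 for A_52_P444815. For A_51_P143659 the authors' deposited table gives 7.308 with an adjusted p of 1e-05. Both of those lie above the folds of the normalization used here, which adds an offset of 50 to each corrected signal.

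**Figure D2:**
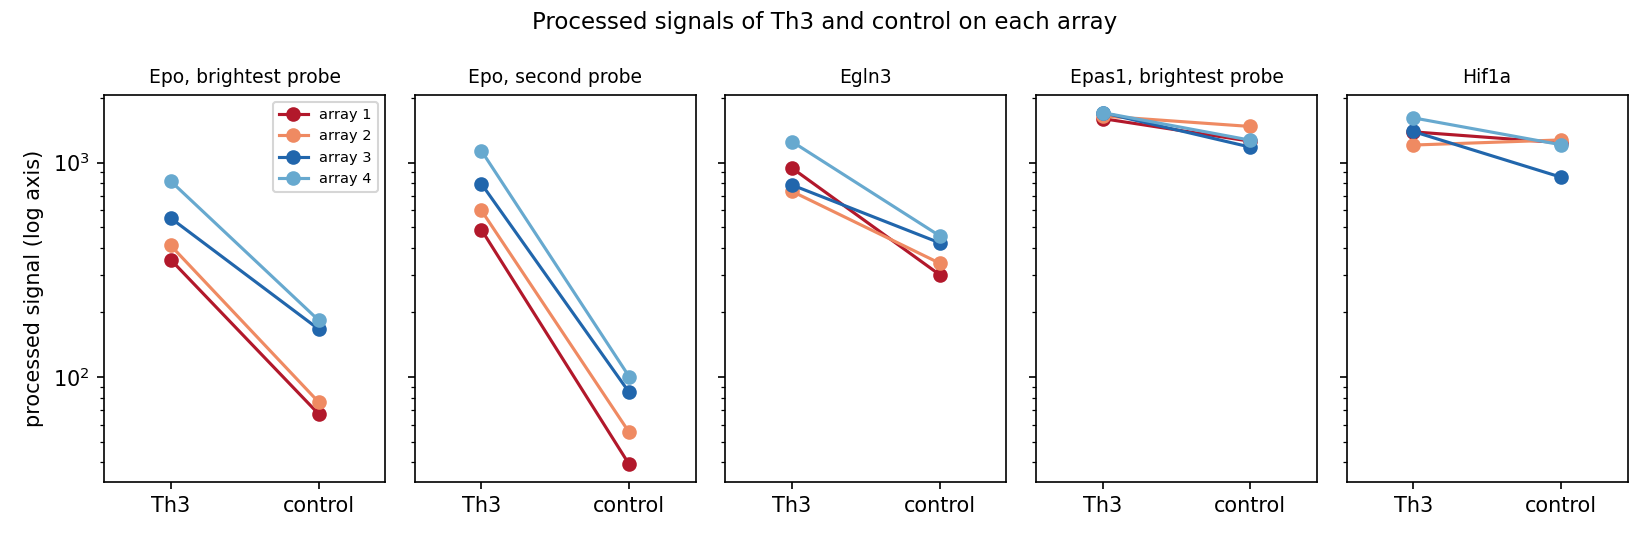
Processed signal in arbitrary units (log axis) of the 2 Epo probes, Egln3, the brightest Epas1 probe and Hif1a, with Th3 left and control right and a line joining the samples of 1 array. Th3 and control signals do not overlap except for Hif1a, and the Epo lines are the steepest.

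In a bulk sample, fewer or more cells of a type and less or more RNA per cell cannot be told apart. Over all genes tested, 10.9% were called higher and 10.6% lower. Markers of renal interstitial fibroblasts and pericytes, the cells that include the makers of Epo, moved both ways: 4 of the 15 measured rose, 5 fell, and the other 6 did not pass. Their summed processed signal was 98539 to 113074 in Th3 kidneys and 91337 to 112394 in control kidneys. Among them Rgs5, a pericyte marker, had a log2 ratio of 1.40 and Col3a1, a fibrillar collagen, one of -0.99. Pdgfrb, found on pericytes and fibroblasts, and Nt5e, an ectonucleotidase of cortical fibroblasts, had ratios of 0.35 and 0.39. These 4 genes were picked from the list after their values were seen. The other marker that rose was Dcn, with a log2 ratio of 0.55. The others that fell were Lum, Ngfr, Col1a1 and Tagln, with ratios of -0.42, -0.38, -0.29 and -0.22.

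Among markers of other sources, all calls for liver and for red-cell precursors were higher, while kidney epithelial and leucocyte calls were all lower. The shares over all genes were 10.9% higher and 10.6% lower. Of 10 liver markers 9 rose, with a median log2 ratio of 0.65 and a summed signal of 10634 to 13075 in Th3 kidneys against 3276 to 7158 in control kidneys. Apoa1 and Cps1, counted among the 9, passed the filter through Th3 only, being well above background on 2 and 1 of the control arrays, so these calls are no independent support. Of 6 red-cell precursor markers measured 4 rose, with a median log2 ratio of 0.37. Their summed signal was 5120 to 7071 in Th3 kidneys and 4001 to 6244 in control kidneys, and Gata1 and Spna1 were too dim to be kept. Of the 4 that rose, 3 likewise passed the filter through Th3 only. Of 12 kidney epithelial markers, all measured, 0 rose and 4 fell, with a summed signal of 551606 to 673551 in Th3 kidneys and 632422 to 726273 in control kidneys. Of 9 fat markers measured 2 rose and 2 fell, with a summed signal of 125558 to 150636 in Th3 kidneys and 53610 to 219363 in control kidneys. Ucp1, the uncoupling protein of brown fat, picked after its value was seen, fell by 3.40 on the log2 scale (adjusted p = 0.00156, limma). It was lower on 4 of 4 arrays. Cidea also fell, with a log2 ratio of -1.11. The 2 fat markers that rose were Adipoq at 1.00, with array 4 at -0.47, and Retn at 0.64. Over the 9 fat markers the median log2 ratio was 0.26. Of 6 leucocyte markers measured 4 fell, with a summed signal of 3290 to 4348 in Th3 kidneys and 4623 to 6712 in control kidneys. Of 11 endothelial markers 1 rose, Flt1, a VEGF receptor. Of the 2 muscle markers and 3 adrenal markers measured, 0 passed in either direction. The part of these in the Epo result was not tested.

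Among the HIF alpha subunits, Epas1 and Hif1a passed as higher, by small folds, and Hif3a did not pass. Epas1, also called HIF-2 alpha, is the subunit known to drive Epo in kidney. On its brightest probe, A_52_P293443 (chr17:86707043-86707102, build mm8), the processed signal was 1602, 1647, 1709 and 1709 in Th3 kidneys. In control kidneys it was 1256, 1472, 1180 and 1271. All Th3 signals were above all control signals, by a narrow margin.

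The log2 ratio of Epas1 was 0.33, 0.15, 0.51 and 0.40 on arrays 1 to 4, a mean of 0.35 ± 0.15 (SD, n = 4) or 1.27-fold, with an adjusted p of 0.0106 in the limma fit. The authors' deposited table has 1.28-fold with an adjusted p of 0.04607. A dimmer Epas1 probe, A_51_P307954 (chr17:86739794-86739853), had signals of 49.6 to 67.9 in Th3 kidneys and 50.8 to 62.5 in control kidneys. Its log2 ratio was -0.02 ± 0.03 (SD, n = 4), and it did not pass (adjusted p = 0.853, limma over all kept probes). The brighter probe was assigned to Epas1 by gene symbol only, and the dimmer one by its RefSeq transcript. The 2 Epas1 probes therefore disagree, and with their mean as the gene's value Epas1 had a log2 ratio of 0.17 and an adjusted p of 0.0596. Treating each pair of arrays as a random block also ended the call (adjusted p = 0.0502).

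Hif1a, the alpha subunit expressed in most cells, had processed signals of 1390, 1206, 1395 and 1615 in Th3 kidneys and 1236, 1274, 854 and 1210 in control kidneys (chr12:74865120-74865180). The groups overlapped, and array 2 had the higher signal in the control. Its log2 ratio was 0.17, -0.01, 0.60 and 0.35 on arrays 1 to 4, a mean of 0.28 ± 0.26 (SD, n = 4) or 1.21-fold. The limma fit gave an adjusted p of 0.0305, with means of 0.08 with Th3 in Cy5 and 0.47 with Th3 in Cy3. The call was lost under 6 of 21 alternatives: without array 1 (log2 ratio 0.23, adjusted p = 0.118), without array 3 (0.21, adjusted p = 0.0892) and 4 more. The authors' deposited table has an adjusted p of 0.17824 for this probe.

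Hif3a, which in part acts against the other alpha subunits, had processed signals of 55.6 to 86.8 in Th3 kidneys and 55.2 to 87.0 in control kidneys. Its log2 ratio was -0.0048 ± 0.074 (SD, n = 4), with a 95% interval of -0.13 to 0.12 (adjusted p = 0.961, limma). A second Hif3a probe was well above background on 1 Th3 array and 0 control arrays and was not tested. Arnt, the shared beta subunit, had a log2 ratio of 0.02 ± 0.12 (SD, n = 4) on its brightest probe, with an interval of -0.12 to 0.17 (adjusted p = 0.813, limma). The log2 ratios of the 4 Arnt probes lay between 0.02 and 0.14, and 0 of them passed.

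**Figure D3:**
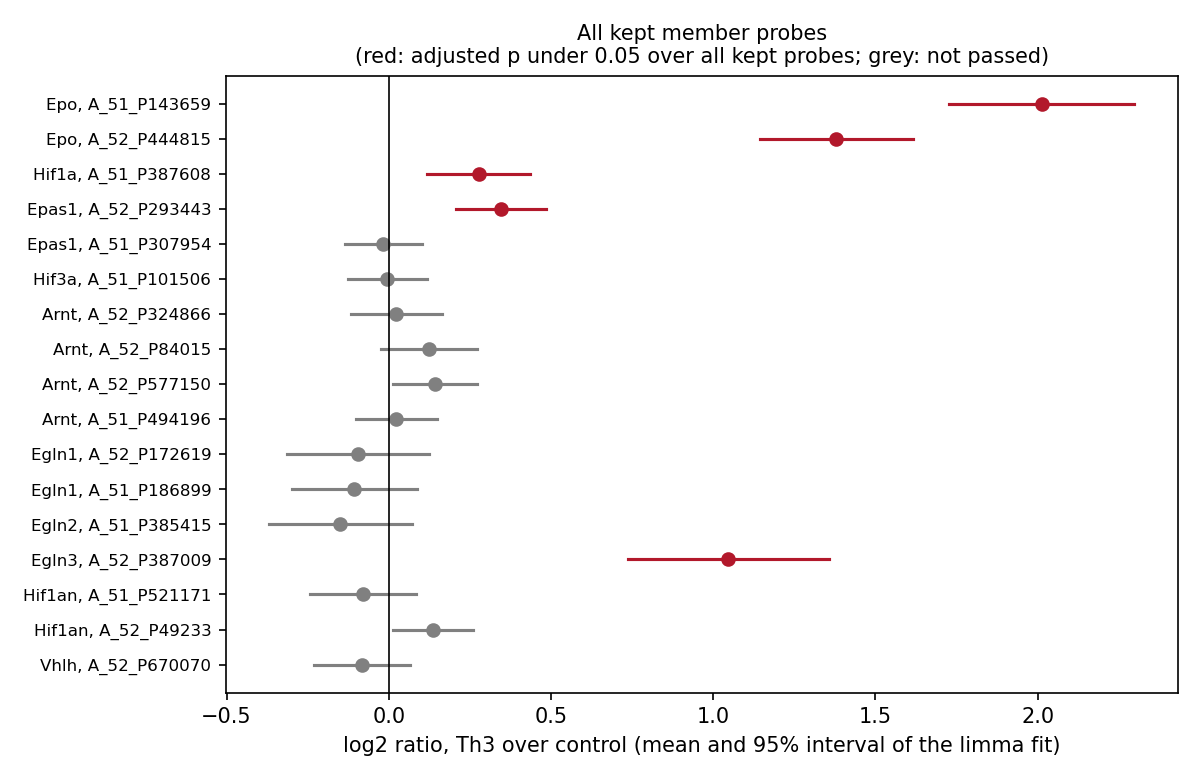
Mean log2 ratio of Th3 over control with its 95% interval from the limma fit (horizontal axis) for each of the 17 kept member probes, red where the adjusted p was under 0.05. Both Epo probes and the Egln3 probe lie furthest to the right, and the 2 Epas1 probes fall on different sides of the threshold.

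Over all 26434 kept probes 18.2% passed the test in either direction. Of the 17 kept member probes 5 passed, all as higher: both Epo probes and 1 each of Egln3, Epas1 and Hif1a. Processed signals did not overlap between Th3 and control for 5 of the 19 member probes, which were those of Epo and Egln3, the brightest Epas1 probe and 1 probe of Hif1an. The same held for 11.3% of all 41174 probes.

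Of the 3 prolyl hydroxylases Egln3 rose, and Egln1 and Egln2 did not pass. Egln3 is induced by HIF and limits the alpha subunits in turn. Its 1 probe, A_52_P387009 (chr12:55101592-55101651, minus strand, build mm8), had processed signals of 942, 734, 786 and 1252 in Th3 kidneys. In control kidneys it had 300, 339, 422 and 455. The groups did not overlap, with the lowest Th3 signal 1.61 times the highest control signal.

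The log2 ratio of Egln3 was 1.40, 0.73, 0.78 and 1.28 on arrays 1 to 4, a mean of 1.05 ± 0.35 (SD, n = 4). That is 2.07-fold, with a 95% interval of 0.74 to 1.35 on the log2 scale, an adjusted p of 0.00437 in the limma fit and rank 49 among all genes by log2 ratio. The pairs of arrays had close means, 1.06 with Th3 in Cy5 and 1.03 with Th3 in Cy3. It was called under all 21 alternatives, with folds of 1.84 to 2.43. The authors' deposited table has 2.298-fold with an adjusted p of 0.00223.

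Egln1, the main prolyl hydroxylase of the HIF alpha subunits at normal oxygen, had processed signals of 1930, 2331, 2297 and 2048 in Th3 kidneys. In control kidneys it had 2039, 2282, 2145 and 2795. Its log2 ratio was -0.06, 0.06, 0.07 and -0.46, a mean of -0.09 ± 0.25 (SD, n = 4), with an interval of -0.31 to 0.12 (adjusted p = 0.50, limma). The groups overlapped, and array 4 stood apart as the lowest. On a dimmer Egln1 probe the log2 ratio was -0.11, also short of the threshold.

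Egln2, another of the enzymes that hydroxylate the alpha subunits, had processed signals of 1525, 1579, 1645 and 1400 in Th3 kidneys and 1764, 1771, 1509 and 1889 in control kidneys. Th3 was lower on 3 of 4 arrays, and the groups overlapped. Its log2 ratio was -0.15 ± 0.22 (SD, n = 4), with an interval of -0.37 to 0.07 (adjusted p = 0.290, limma). Without array 3, on which Th3 was higher, it fell by 0.28 on the log2 scale with an adjusted p of 0.0369.

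Hif1an, the asparaginyl hydroxylase that blocks the HIF activation domain, and Vhlh, the recognition subunit of the ubiquitin ligase, did not pass. Hif1an had a log2 ratio of -0.08 ± 0.15 (SD, n = 4) on its brightest probe (adjusted p = 0.460, limma), with signals of 371 to 458 in Th3 kidneys and 417 to 459 in control kidneys. A dimmer probe, A_52_P49233, went the other way on the processed scale, with 82.7 to 109 in Th3 kidneys and 65.2 to 76.4 in control kidneys. Its normalized log2 ratio was 0.14 ± 0.10 (SD, n = 4), which did not pass over all kept probes (adjusted p = 0.117, limma). One more Hif1an probe was too dim to be tested.

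Vhlh had processed signals of 833, 826, 876 and 830 in Th3 kidneys and 782, 811, 935 and 1086 in control kidneys. Its log2 ratio was 0.11 and 0.08 where Th3 was in Cy5 and -0.13 and -0.39 where it was in Cy3, so the pairs of arrays differed in sign. The mean was -0.08 ± 0.23 (SD, n = 4; adjusted p = 0.394, limma). Over the 6 members that did not pass, the 95% intervals of the brightest probes reached from -0.37 to 0.17 on the log2 scale. Over all 11 of their kept probes they reached from -0.37 to 0.27, that is from 0.774-fold to 1.21-fold. These intervals hold for ratios with the offset added, and they leave out the difference between pairs of arrays. For Vhlh the pair means were 0.10 and -0.26. The intervals do not bound the folds of processed signals, which were 1.35 on Hif1an A_52_P49233 and 1.24 on Arnt A_52_P577150. The lowest such fold among these 11 probes was 0.880, on Egln1 A_51_P186899.

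**Figure D4:**
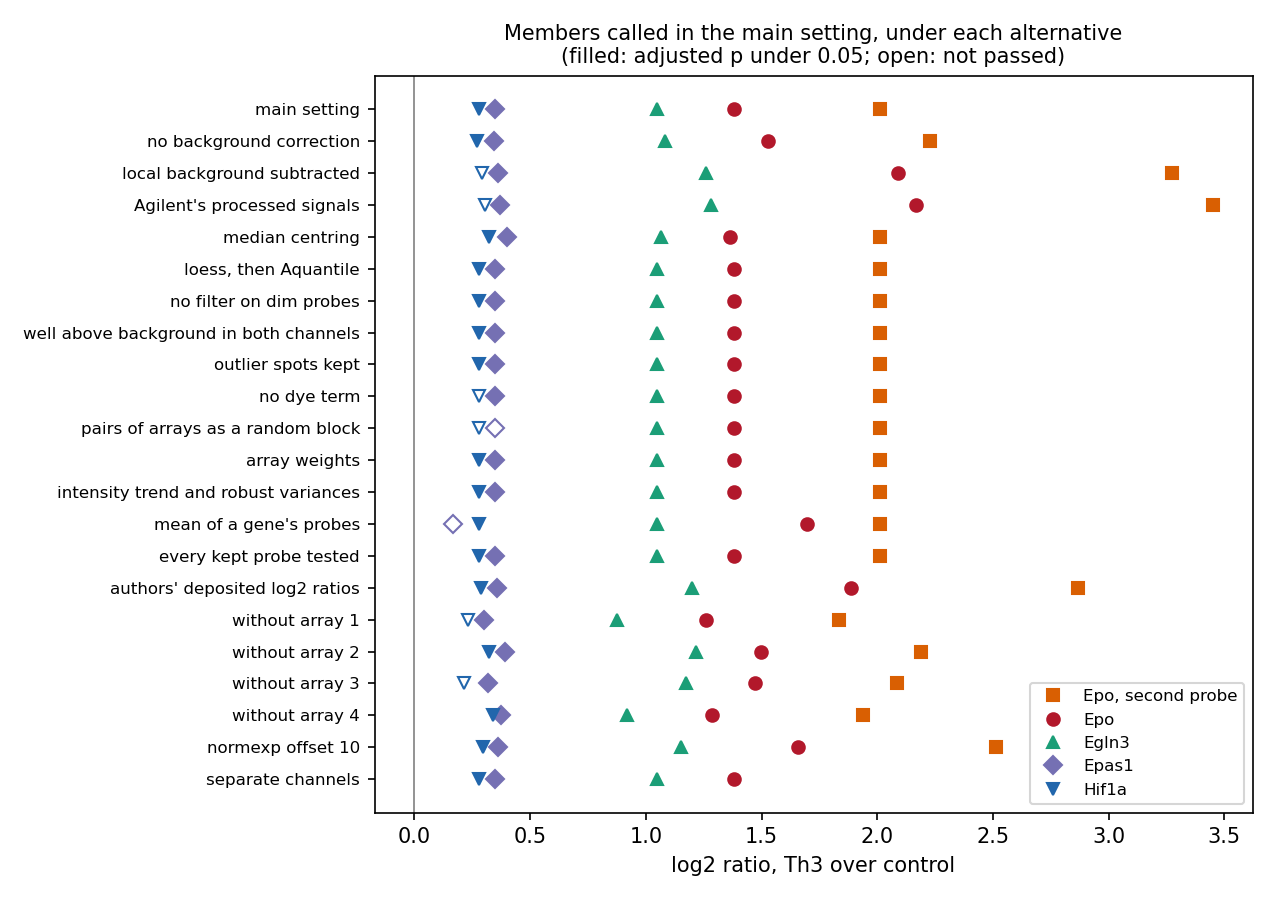
Log2 ratio of Th3 over control (horizontal axis) of the members called higher, under the main setting and each alternative (rows), filled where the adjusted p was under 0.05 and open where not. Both Epo probes and Egln3 are filled in every row that has a value, while Hif1a is open in 6 rows and Epas1 in 2.

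The other genes of the pathway were taken from lists, which were chosen with earlier results of these data known. Over all genes tested, 10.9% were called higher and 10.6% lower, and the counts of each list stand beside these shares. Among 39 measured HIF target genes there were 25 called higher, 1 called lower and 13 short of the threshold, with a median log2 ratio of 0.39 against 0.0013 over all genes. Ankrd37, an ankyrin-repeat protein induced by hypoxia, had a log2 ratio of 1.86 ± 0.49 (SD, n = 4; adjusted p = 0.00192, limma) and was higher on 4 of 4 arrays. Slc16a3, a lactate exporter, had a log2 ratio of 1.51 ± 0.59 (SD, n = 4; adjusted p = 0.00582, limma). Pfkfb4, an enzyme that sets the level of an activator of glycolysis, fell by 0.31 on the log2 scale (adjusted p = 0.0153, limma) and was lower on 4 of 4 arrays.

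Of 18 partners in HIF degradation and stability, 4 rose, 3 fell and 11 did not pass, with a median log2 ratio of -0.05. The Siah ubiquitin ligases, which act on Egln enzymes, were on both sides. Siah1a had a log2 ratio of 0.38 (adjusted p = 0.00730, limma) and Siah1b one of 0.25 (adjusted p = 0.0312, limma). Siah2 had one of -0.42 (adjusted p = 0.0101, limma). Hsp90ab1, a chaperone that protects the alpha subunits, had -0.41 (adjusted p = 0.0180, limma). Gnb2l1, the scaffold RACK1 that competes with this chaperone, had a mean of 0.28 (adjusted p = 0.0216, limma). It was higher in Th3 on arrays 1 and 2 only, at 0.79 and 0.58, and stood at -0.16 and -0.10 on arrays 3 and 4. The dye term takes up this difference between the pairs, so the p-value of Gnb2l1 does not reflect it.

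Of 12 transcription partners of HIF, 3 rose, 1 fell and 8 did not pass, with a median log2 ratio of -0.0048. The Cited proteins compete with HIF for its coactivators. Cited4 had a log2 ratio of 0.44 ± 0.18 (SD, n = 4; adjusted p = 0.0114, limma) and Cited2 one of 0.40 ± 0.36 (SD, n = 4; adjusted p = 0.0337, limma), with array 1 at -0.12. Cited1 had -0.28 ± 0.17 (SD, n = 4; adjusted p = 0.0438, limma).

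Of 9 measured regulators of the Epo gene, such as Gata and hepatocyte nuclear factors, 0 passed in either direction. Their log2 ratios lay between -0.12 and 0.25. Of 15 genes of the Epo receptor and its signalling, 0 rose, 2 fell and 13 did not pass. Socs1, an inhibitor of cytokine signalling, fell by 0.35 on the log2 scale (adjusted p = 0.0164, limma), and Ptpn6, a phosphatase that ends Epo receptor signalling, fell by 0.33 (adjusted p = 0.00890, limma). Both are rich in leucocytes, whose markers were lower in Th3 kidney as given above, and the part of those cells was not tested. Epor, the receptor, named here for its role, had a log2 ratio of -0.20, short of the threshold, with an interval of -0.34 to -0.05 (adjusted p = 0.0611, limma).

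**Figure D5:**
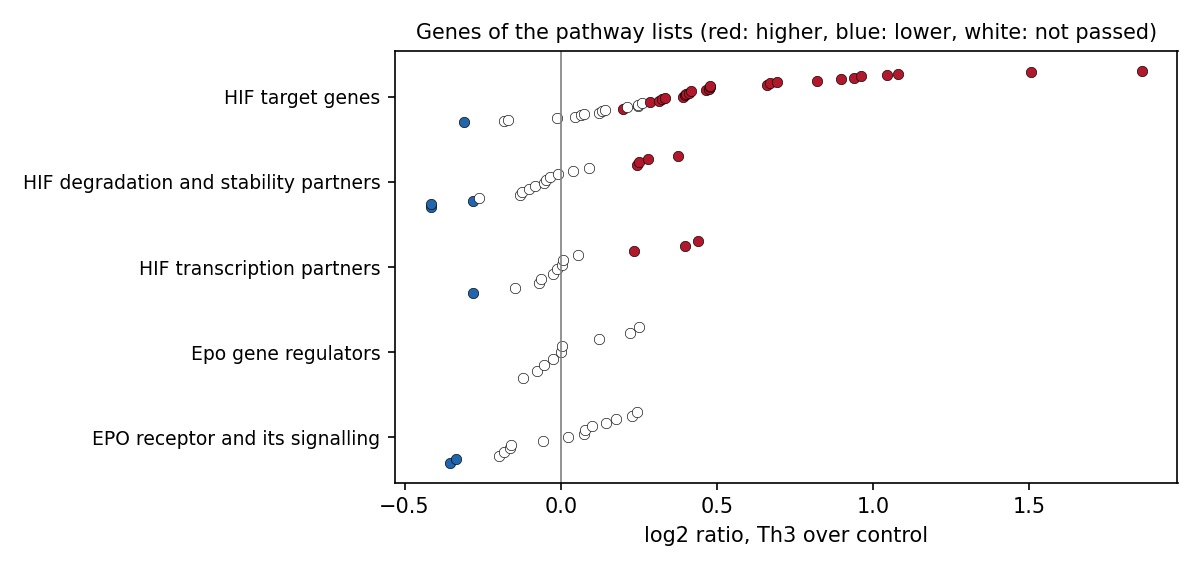
Log2 ratio of Th3 over control (horizontal axis) of every measured gene of the 5 pathway lists (rows), coloured by the call. The HIF target genes lie mostly right of 0, up to 1.86, while the other lists spread on both sides between -0.42 and 0.44.

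Genes were also sought whose ratios over the 4 arrays were nearest to those of A_52_P444815, the probe that stands for Epo. By root mean square difference of log2 ratios these were Col6a1 (0.162), Mtarc1 (0.193), Tmem45a (0.228), Odf4 (0.260) and Sparcl1 (0.262). The other Epo probe exceeded A_52_P444815 by 0.52, 0.29, 0.90 and 0.82 on arrays 1 to 4, so these neighbours are those of 1 Epo probe only. Col6a1, a collagen VI chain, had log2 ratios of 1.36, 1.13, 1.57 and 1.66 on arrays 1 to 4. Nearest to Egln3 were Abcc9 (0.122), Tcte3 (0.191), Hey1 (0.199), Car9 (0.207) and Ackr2 (0.209). Abcc9, a subunit of potassium channels of vascular mural cells, had 1.46, 0.88, 0.79 and 1.11. Car9, a carbonic anhydrase, is itself on the list of HIF target genes. Likeness over 4 arrays is a description of these ratios only.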

How the data were processed

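RNA from kidneys of Th3 mice and controls was hybridised in pairs to 4 Agilent arrays (design 014868). Per the labels' protocols, total RNA was amplified linearly from an oligo-dT primer and labelled as cRNA. Spot and background intensities were made with Agilent Feature Extraction 9.5.3.1, per the file headers, as were the processed intensities and the log10 ratio, which served to check each ratio's direction. The authors deposited a table with log2 ratios of Th3 over control, a signed fold (a score, by a rule not given in the sources used here) and an adjusted p-value of an unnamed test. Positions of probes are on build mm8, per the file headers.

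With R 4.3.3 and limma 3.58.1, mean signals were corrected by normexp (offset 50) and normalized by loess within arrays (span 0.3, 4 iterations); control and outlier spots had weight 0. A probe was kept when it had values on 3 or more arrays and was well above background in Th3, or in control, on every array. Names came from a RefSeq table of GRCm38.p6. A gene was represented by its brightest kept probe. Ratios were fitted with lmFit and eBayes on a Th3 and a dye term, with 2 residual and 4.52 prior degrees of freedom, and adjusted by Benjamini-Hochberg. A ± is the SD over arrays. The fit was tested on simulated data with errors independent between arrays, apart from a small dye effect. That test cannot judge the p-values where arrays of a pair share more than this. Between 62.4% and 72.7% of spots per channel were well above background, and 0 were saturated. Correlations of ratios over all genes were 0.67 for arrays 1 and 2, 0.71 for arrays 3 and 4 and 0.43 to 0.53 between these pairs. All 4 arrays lie on 1 slide.

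Named genes are all members, and up to 2 called genes with the largest increase and 2 with the largest decrease of each pathway list. Also named are the 5 genes nearest in ratio to A_52_P444815 of Epo and to Egln3, with genes known by a clone name passed over. Epor was named for its role and Siah1b to complete the Siah ligases, and genes of the marker lists were named after their values were seen. The members and lists were chosen with earlier results of these data known. Alternatives changed the background correction, normalization, filter, outliers, dye term, weights, empirical Bayes settings, probe rule, source of ratios or the arrays used.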

Additional observations from a re-analysis of the deposited data

How the results depend on the processing

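Epo and Egln3 kept their direction and stayed past the threshold under all 21 alternatives. Many of these left both log2 ratios unchanged, so that direction could not change there and only the p-value could. They were the changes of filter, dye term, random block, weights and empirical Bayes settings, quantile scaling of mean intensities, the test of every kept probe and the separate channels. Hif3a, Arnt, Egln1, Hif1an and Vhlh passed under 0 of 21, and Egln2 under 1, without array 3. Of all genes 3793 were called, 1990 without the dye term, 1199 with each pair of arrays as a random block in its place (correlation 0.183) and 5734 with separate channels. With that random block 2 members were called, Epo and Egln3, against 4. Leaving out 1 array at a time gave 2571 to 3191 called genes and 3 or 4 called members. Without array 1 Hif1a was lost, so that 3 members were called. Hif1a also lost its call with local background subtracted (log2 ratio 0.29, adjusted p = 0.0689), Agilent's processed signals (0.30, adjusted p = 0.0689), no dye term (0.28, adjusted p = 0.127) and the random block (0.28, adjusted p = 0.167), against a log2 ratio of 0.28 where it was called. Without array 3 Hif1a was lost and Egln2 was called, as lower. An offset of 10 in place of 50, chosen after seeing the data, gave Epo a log2 ratio of 1.66 and its second probe 2.51. The cause of these changes was not tested. Both Epo probes were well above background on 4 of 4 control arrays. Every fit of ratios pairs the Th3 and control samples of an array, and the fit of separate channels keeps that pairing as a correlation of 0.419.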
